A study of Drosophila melanogaster with 6 samples.

Results

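The genes of chitin synthesis, chitin binding and chitin remodelling were followed in *Drosophila melanogaster* embryos of 6 to 8 h that carried the insv mutant allele insv[23B], set against wild-type embryos of the strain w[1118]. Members were chosen by name. They comprised every gene whose symbol starts with obst-, or with Cht, Idgf or Cda followed by a digit, together with kkv, knk, rtv, mmy, Gasp, serp and verm. Where a gene had several probe sets, that of the highest mean level was used, and 33 of the 11982 genes with a uniquely named probe set belonged to the group; rtv had no uniquely named probe set and was not analysed here. Total RNA was hybridised to 6 Affymetrix arrays, 3 for each genotype, from flies kept and embryos aged at 25 °C. The labels name 1 mutant allele and do not say whether embryos were selected or whether the 3 samples of a genotype came from separate collections, so p-values speak only of the spread among these samples, and that may be technical.

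Chitin is a polymer of N-acetylglucosamine that insects secrete at the apical surface of epithelia. It is built from the activated sugar UDP-N-acetylglucosamine by a membrane-bound synthase, bound and organised by secreted proteins, trimmed by deacetylases and broken down by chitinases. In the embryo it fills the lumen of the growing tracheal tubes, where it helps to set tube diameter and length, and later forms part of the larval cuticle. The obstructor family consists of secreted proteins with chitin-binding domains of the peritrophin type. The imaginal disc growth factors (Idgf) are secreted relatives of chitinases that have lost the catalytic activity.

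The mutated gene checked the labels: insv read 4, 3.6 and 4.2 on the mutant arrays against 10.9 on each wild-type array (log2 level), 125-fold higher in wild type (limma adjusted p = 3.26e-06). A log2 level of 4 or more was reached by 8295 to 8312 probe sets on the mutant arrays and by 7821 to 7883 on the wild-type arrays. The 23 Bacillus spike-in probe sets, controls of non-fly origin, read lower on every mutant array than on every wild-type array, by a median log2 difference of -1.43. The 18 hybridization control probe sets were lower in the mutant as well, by a median log2 difference of -0.55. In 16 of them every mutant value lay below every wild-type value. The 3 arrays of each genotype moved together in the spike-ins, so genotype and array handling cannot be told apart. Every fold change below is on the scale the authors deposited. Over all 6932 tested genes the median log2 fold change (mutant over wild type) was -0.13, with quartiles of -0.37 and 0.20.

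Chitin genes were higher in the mutant almost throughout. A gene was tested if its probe set reached a log2 level of 4 on at least 3 of the 6 arrays, and 24 of the 33 members were. Of these, 23 rose, 14 of them at least 2-fold, and Cht11 fell. Among all tested genes 24.9% rose and 41.7% fell, and 13.3% rose at least 2-fold. On other scales of the same arrays these background shares were 30.9% and 29.8% after median centring, and 92.9% and 0.563% on the spike-in scale. The median log2 fold change of the tested members was 1.48.

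The filter favours genes that are higher in the mutant, since obst-B, obst-J and Idgf1 passed it through the mutant arrays alone. Cht5 and Cht9 reached a log2 level of 4 on only some wild-type arrays, so they passed in part through the mutant arrays. Of the 19 members that reached a log2 level of 4 on all 3 wild-type arrays, 18 rose and 1 fell, with a median log2 fold change of 1.43. Among the 6397 tested genes that met the same condition, 19% rose and 45.2% fell, and the median was -0.17. Over all 33 members, tested or not, the mutant values lay above all wild-type values for 26 genes, below them for 1 and overlapped for 6. Over all 11982 genes the mutant values lay above in 18% and below in 24.8%.

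**Figure D1:**
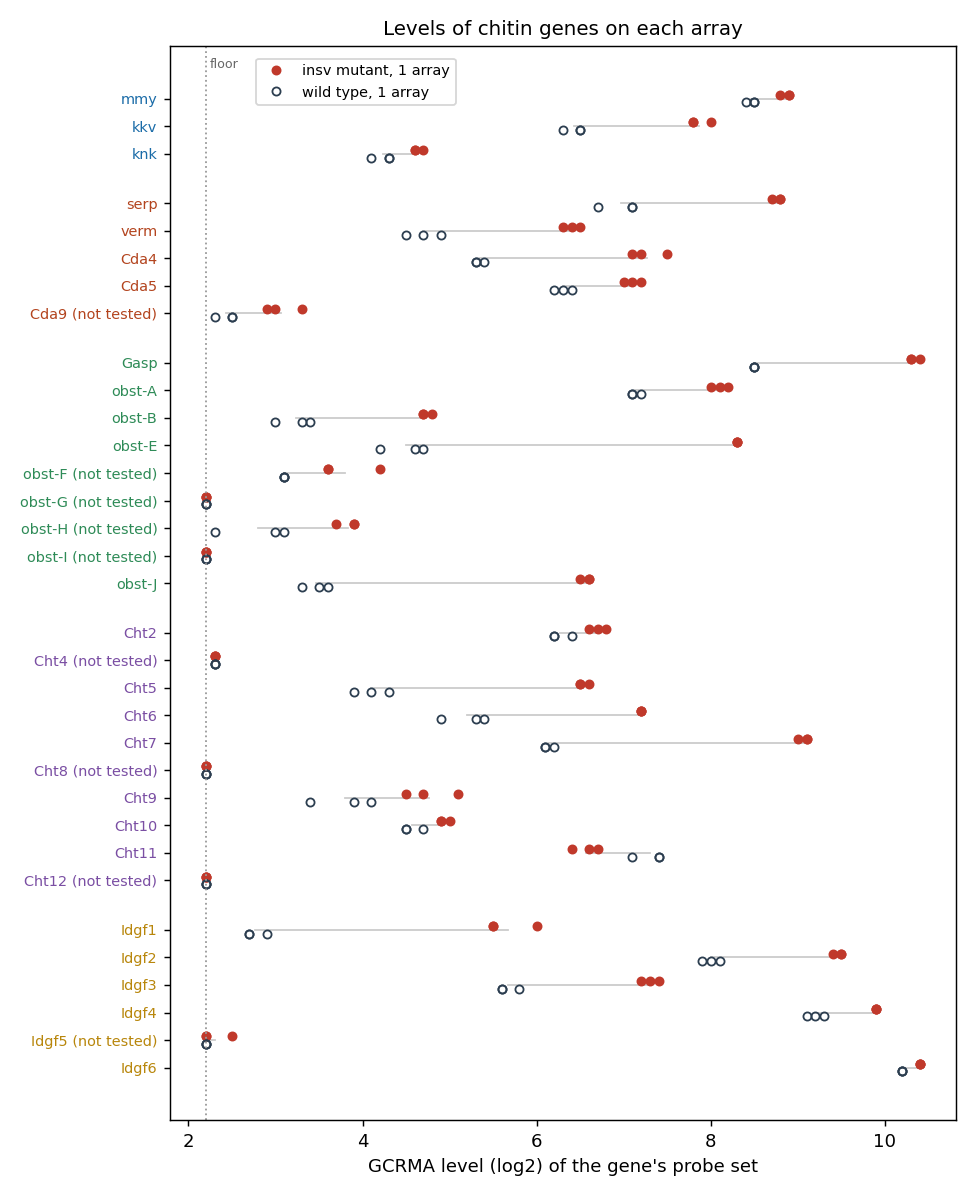
GCRMA log2 level (horizontal axis) of the 33 chitin genes on each array, with mutant arrays as filled points and wild-type arrays as open points just under them; points of equal value lie on each other, and grey lines join the genotype means. Gene names are coloured by role, and the dotted line marks the floor of 2.2, where 5 genes lie within 0.1 on all 6 arrays; levels of different genes come from different probes and are not comparable.

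The enzymes and partners that make chitin rose to different degrees. The gene krotzkopf verkehrt (kkv), which encodes the chitin synthase of epidermis and trachea, read 7.8, 7.8 and 8 in the mutant against 6.5, 6.3 and 6.5 in wild type (log2 level). All mutant values stood above all wild-type values, at 2.7-fold (log2 fold change 1.43 ± 0.09 SE, limma adjusted p = 9.44e-05). The gene mummy (mmy), whose enzyme makes UDP-N-acetylglucosamine in the last step before the synthase, read 8.9, 8.8 and 8.9 in the mutant and 8.5, 8.5 and 8.4 in wild type (log2 level). Its groups did not overlap either, but the log2 fold change was only 0.40 (95% interval 0.28 to 0.52; limma adjusted p = 0.00111). Knickkopf (knk), a membrane-associated protein needed for ordered chitin fibres, read 4.6, 4.7 and 4.6 in the mutant and 4.3, 4.1 and 4.3 in wild type, little above the filter (log2 level). The log2 fold change of knk was 0.40 as well (limma adjusted p = 0.00464), and it turned to -0.36 after quantile normalization (adjusted p = 0.00489). The intervals of kkv (1.22 to 1.65) and of mmy did not meet, so on this scale the synthase gene changed by more than the gene of the enzyme that supplies it.

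All 4 tested chitin deacetylases rose, 3 of them by similar amounts. Serpentine (serp) and vermiform (verm) are secreted into the tracheal lumen and limit tube length, and the genes are direct neighbours on chromosome arm 3L. Serp read 8.7, 8.8 and 8.8 in the mutant against 7.1, 6.7 and 7.1 in wild type (log2 level), a log2 fold change of 1.80 (95% interval 1.49 to 2.11). Verm read 6.5, 6.4 and 6.3 in the mutant against 4.9, 4.7 and 4.5 in wild type (log2 level), a log2 fold change of 1.70 (95% interval 1.41 to 1.99). Both passed with the same limma adjusted p of 0.000155, and neither had overlapping groups. Cda4, a further member of the family, read 7.1, 7.5 and 7.2 in the mutant against 5.3, 5.3 and 5.4 in wild type (log2 level), or 3.82-fold higher (limma adjusted p = 8.21e-05). Cda5 rose by less, with a log2 fold change of 0.80 (95% interval 0.61 to 0.99; limma adjusted p = 0.000501). Cda9 stayed under the filter and was not tested; it read 3.3, 3 and 2.9 in the mutant and 2.3, 2.5 and 2.5 in wild type (log2 level).

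**Figure D2:**
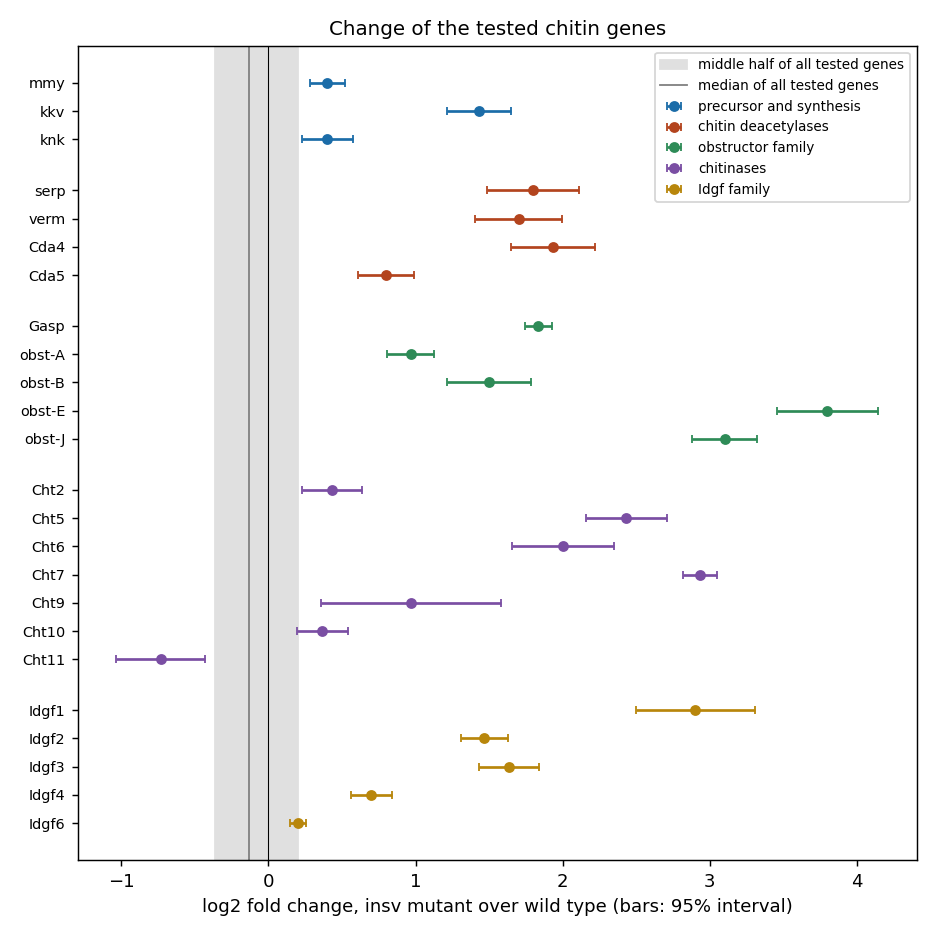
Log2 fold change (mutant over wild type, horizontal axis) of the 24 tested chitin genes, grouped and coloured by role, with bars for the 95% interval of limma. The grey band spans the quartiles of all 6932 tested genes, -0.37 to 0.20, and the grey line their median of -0.13; only Cht11 lies under zero.

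Chitin-binding proteins of the obstructor family had increases of several sizes. Of 9 members 5 were tested and all 5 rose, with log2 fold changes of 0.97 to 3.80. The largest, by the probe set of the highest mean, was that of obst-E, a cuticle protein gene, which read 8.3 on each mutant array against 4.7, 4.6 and 4.2 in wild type (log2 level). The difference was 13.9-fold (log2 fold change 3.80 ± 0.14 SE, limma adjusted p = 1.45e-05), and 98.4% of tested genes had a log2 fold change no greater than that. A second probe set for obst-E moved the same way by less, at 5.6, 5.3 and 5.2 in the mutant and 3.9, 4 and 3.8 in wild type (log2 level; log2 fold change 1.47, limma adjusted p = 0.000296). With the probe sets averaged, obst-E had a log2 fold change of 2.63, below that of obst-J, so both the size of the obst-E change and its rank depend on the probe set.

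Gasp, also known as obst-C, is secreted into the tracheal lumen and carries a classical luminal antigen. It read 10.3, 10.4 and 10.3 in the mutant against 8.5 on each wild-type array (log2 level), a tight separation (log2 fold change 1.83 ± 0.04 SE, limma adjusted p = 2.33e-06). The obst-A protein, which scaffolds the chitin matrix of trachea and cuticle, had a log2 fold change of 0.97 (95% interval 0.81 to 1.13; limma adjusted p = 0.000127). A pair of members that were low in wild type passed the filter only through the mutant arrays. One was obst-J, at 6.5, 6.6 and 6.6 in the mutant against 3.3, 3.6 and 3.5 in wild type (log2 level; 8.57-fold, limma adjusted p = 6.04e-06). The other was obst-B, at 4.8, 4.7 and 4.7 in the mutant against 3.4, 3 and 3.3 in wild type (log2 level; 2.83-fold, limma adjusted p = 0.000214).

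The remaining obstructor genes were not tested. The values of obst-F were 4.2, 3.6 and 3.6 in the mutant and 3.1 on each wild-type array, and those of obst-H were 3.9, 3.9 and 3.7 in the mutant and 3.1, 3 and 2.3 in wild type (log2 level). In both genes the mutant values lay above the wild-type values, close to the limit of detection. At the floor, obst-G and obst-I read 2.2 on all 6 arrays, so the family held both genes with large increases and genes with no measurable signal.

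Chitinases, which cleave the polymer during remodelling and moulting, were the most divided group. Of 10 members 7 were tested, of which 6 rose, 3 of them at least 2-fold, and 1 fell. Cht7, an enzyme of the class that in the beetle *Tribolium castaneum* is needed for chitin organisation, read 9, 9.1 and 9.1 in the mutant against 6.2, 6.1 and 6.1 in wild type (log2 level). Cht7 was thus 7.64-fold higher (log2 fold change 2.93 ± 0.05 SE, limma adjusted p = 1.16e-06). Cht5, a chitinase best known from moulting, read 6.5, 6.5 and 6.6 in the mutant against 4.1, 4.3 and 3.9 in wild type (log2 level), or 5.4-fold higher (limma adjusted p = 3.02e-05). Cht6 read 7.2 on each mutant array against 5.4, 4.9 and 5.3 in wild type (log2 level), a log2 fold change of 2.00 (limma adjusted p = 0.000155). This rests on 1 of 3 Cht6 probe sets: another read 2.2 on all arrays, and the third read 2.5, 2.6 and 2.5 in the mutant and 2.7, 2.5 and 2.5 in wild type.

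Smaller increases were found for Cht2, Cht9 and Cht10. Cht2 had a log2 fold change of 0.43 (limma adjusted p = 0.0062) and Cht10 one of 0.37 (limma adjusted p = 0.00638). After quantile normalization Cht2 no longer passed (0.18, adjusted p = 0.12) and Cht10 was lower in the mutant (-0.36, adjusted p = 0.0065). Cht9 was the noisiest member, at 5.1, 4.5 and 4.7 in the mutant and 3.4, 4.1 and 3.9 in wild type (log2 level; log2 fold change 0.97, 95% interval 0.36 to 1.58, limma adjusted p = 0.0172). The Cht9 call did not survive the loss of single arrays: the adjusted p was 0.0554 without mutant replicate 1, 0.0534 without mutant replicate 3 and 0.0514 without wild-type replicate 3.

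Cht11 was the sole member that fell. It read 6.6, 6.4 and 6.7 in the mutant against 7.4, 7.4 and 7.1 in wild type (log2 level), 1.66-fold higher in wild type (log2 fold change -0.73 ± 0.12 SE, limma adjusted p = 0.00378). The groups did not overlap, and only 6.51% of tested genes had a log2 fold change as low. On the spike-in scale the direction of Cht11 turned, to 0.65, and it did not pass (adjusted p = 0.0511).

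A further 3 chitinases had no measurable signal. Cht8 and Cht12 read 2.2 and Cht4 read 2.3 on all 6 arrays (log2 level). They form a run of neighbouring genes on chromosome arm 2R together with Cht9, which was the only gene of that run above the floor.

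The Idgf genes rose in 5 of 6 cases, over a wide range of sizes. Idgf1, Idgf2 and Idgf3 follow each other directly on chromosome arm 2L and showed the largest changes of the family. Idgf1 read 6, 5.5 and 5.5 in the mutant against 2.9, 2.7 and 2.7 in wild type (log2 level), a log2 fold change of 2.90 (95% interval 2.50 to 3.31; limma adjusted p = 6.77e-05). Since the wild-type values lay near the floor and the gene passed the filter through the mutant arrays alone, this fold change may understate the difference. Idgf2 read 9.5, 9.4 and 9.5 in the mutant against 8.1, 8 and 7.9 in wild type (log2 level), or 2.76-fold higher (limma adjusted p = 2.65e-05). Idgf3 read 7.2, 7.3 and 7.4 in the mutant against 5.6, 5.8 and 5.6 in wild type (log2 level), or 3.1-fold higher (limma adjusted p = 4.58e-05), while a second Idgf3 probe set lay within 0.1 of the floor on all 6 arrays. The intervals of Idgf2 (1.31 to 1.63) and Idgf3 (1.43 to 1.84) overlapped, and that of Idgf1 lay above both.

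Outside that run the Idgf changes were smaller. Idgf4 read 9.9 on each mutant array against 9.2, 9.1 and 9.3 in wild type (log2 level), a log2 fold change of 0.70 (limma adjusted p = 0.000259). Idgf6, which is also needed for an intact larval cuticle, read 10.4 on each mutant array and 10.2 on each wild-type array (log2 level; log2 fold change 0.20, limma adjusted p = 0.00087). The Idgf6 difference spans only 2 steps of the rounding of the deposited values, and 74.9% of tested genes had a log2 fold change no greater. Idgf5 was not tested, reading 2.5, 2.2 and 2.2 in the mutant and 2.2 on each wild-type array. The probe sets of Idgf3 and Idgf4 carry the manufacturer's suffix for probes that can match transcripts of more than 1 gene; cross-hybridisation between relatives was not tested.

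**Figure D3:**
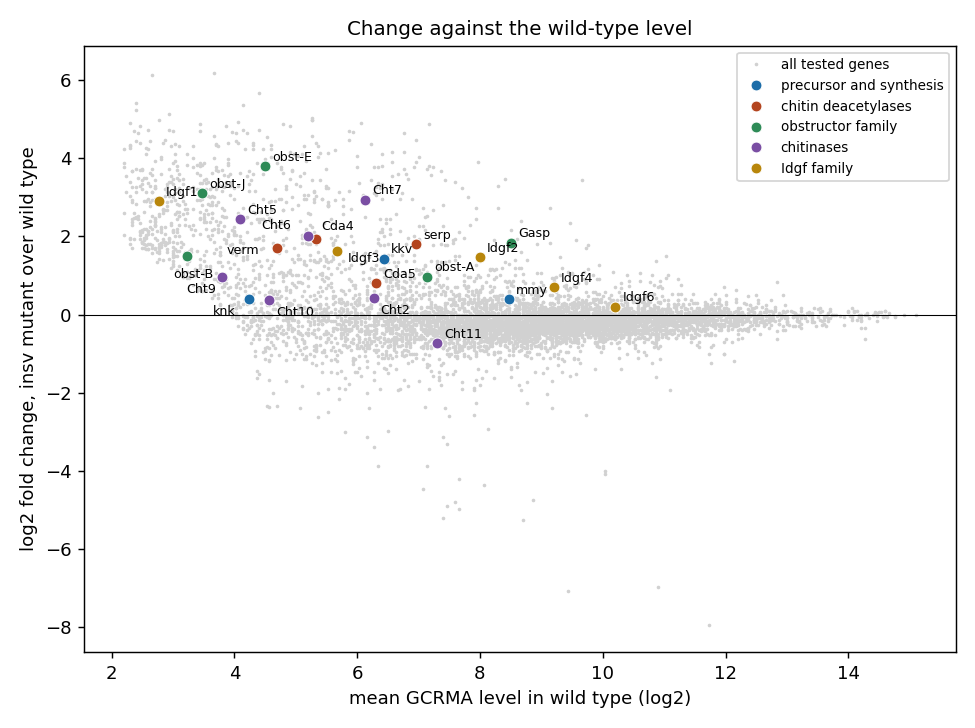
Log2 fold change (mutant over wild type, vertical axis) against the mean wild-type GCRMA log2 level (horizontal axis) for all 6932 tested genes (grey) and the 24 tested chitin genes (coloured by role and named). Genes at the left edge are tested only if they are higher in the mutant, which gives the grey cloud its shape there; 19 chitin genes stand at 4 or more on every wild-type array, and all of these except Cht11 lie above zero.

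Genes that supply the sugar precursor moved in part with the synthase. Of 7 tested genes of this route 5 rose, 3 of them at least 2-fold, and 1 fell (median log2 fold change 0.33). Among all tested genes 24.9% rose, 13.3% rose at least 2-fold and 41.7% fell, and these shares apply to each list that follows. Gfat1, the rate-limiting enzyme of the hexosamine pathway, read 8.4, 8.6 and 8.6 in the mutant against 5.8, 5.8 and 5.7 in wild type (log2 level), well apart (log2 fold change 2.77 ± 0.07 SE, limma adjusted p = 4.53e-06). Its paralogue Gfat2 did not pass, at -0.10 (adjusted p = 0.284). Treh, which splits the blood sugar trehalose into glucose, had a log2 fold change of 3.60 (limma adjusted p = 7.75e-05) and Pgi, a glycolytic isomerase, one of 1.33 (limma adjusted p = 3.72e-05). Treh passed the filter in part through the mutant arrays, at 3.9 on wild-type replicate 2 (log2 level). The gene that fell was Tps1, which makes trehalose, at -0.23 (limma adjusted p = 0.0218), and it did not pass after median centring (adjusted p = 0.116), after quantile normalization (adjusted p = 0.114) or when any 1 array other than mutant replicate 1 was left out (adjusted p = 0.0643 to 0.0689).

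Partners of the synthase rose with it. The genes exp and reb encode related proteins that are required together with kkv for chitin deposition. Reb read 6, 5.5 and 5.6 in the mutant against 2.9, 3.1 and 3.2 in wild type (log2 level; log2 fold change 2.63, limma adjusted p = 9.21e-05), and passed the filter through the mutant arrays alone, so a filter on the wild-type arrays alone or at a log2 level of 6 left 1 gene of the list that rose. Exp read 7, 6.8 and 6.8 in the mutant against 5.6, 5.6 and 5.4 in wild type (log2 level; log2 fold change 1.33, limma adjusted p = 0.000125). The hexosaminidase genes on the same list did not rise: fdl, which trims N-glycans, fell (-0.43, limma adjusted p = 0.0112) and Hexo2 was level (log2 fold change 0.00, adjusted p = 1). Chs2, the second chitin synthase gene of the fly, known from the gut, was not tested, reading 3.2, 3.3 and 3.2 in the mutant and 3.6, 3.3 and 3.3 in wild type (log2 level).

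Mucins and peritrophins, secreted proteins of the gut lining and other apical matrices, held the largest increases among the 5 further lists. All 23 listed genes were measured, and 11 lay at the floor on all arrays. The 9 tested all rose, 7 of them at least 2-fold, against 24.9% and 13.3% of all tested genes. Of the 9, Mur18B, Muc11A and Muc91C passed the filter through the mutant arrays alone. Muc18B and the tested peritrophins passed in part through them. With the filter set on the wild-type arrays alone or at a log2 level of 6, 3 genes of the list rose. The Muc91C call (0.60, limma adjusted p = 0.0245) failed when any 1 of the mutant arrays or wild-type replicate 1 was left out (adjusted p = 0.0518 to 0.0881), and the value turned to -0.13 after quantile normalization (adjusted p = 0.541). The smallest adjusted p belonged to Muc26B (log2 fold change 4.20, limma adjusted p = 9.59e-06), Muc18B (4.33, adjusted p = 1e-05) and Muc55B (3.93, adjusted p = 1.41e-05). Over all 23 genes, tested or not, the median log2 difference was 0.27, against 0 over all 11982 genes.

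Zona pellucida (ZP) domain proteins, which anchor the apical matrix to the cell surface, moved less uniformly. Of 8 tested 5 rose and 3 did not pass (median log2 fold change 0.40), where 24.9% of all tested genes rose and 41.7% fell. The 3 with the smallest adjusted p were mey (1.77, adjusted p = 2.49e-06), dyl (2.33, adjusted p = 5.54e-06) and pot (0.97, adjusted p = 0.00402; 0.274 after quantile normalization), and dyl and pot passed the filter through the mutant arrays alone. With the filter on the wild-type arrays alone 2 genes of the list rose, and with the filter at a log2 level of 6 it was 3. The gene pio, required for a continuous tracheal matrix, rose as well (0.60, adjusted p = 0.00469), while dpy, a giant ZP protein of the tracheal lumen, did not pass (0.20, adjusted p = 0.422).

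**Figure D4:**
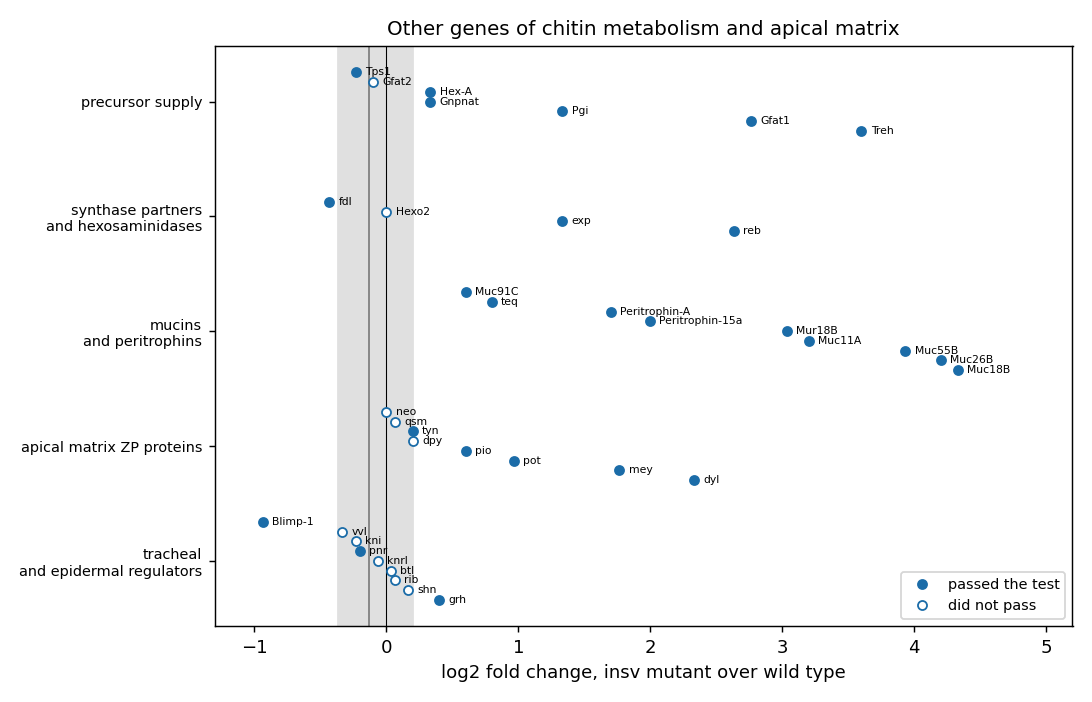
Log2 fold change (mutant over wild type, horizontal axis) of the tested genes of 5 further lists, 1 point per gene, filled where the limma test passed and open where it did not. The grey band and line give the quartiles and the median of all tested genes; the regulators in the lowest row stay between -0.93 and 0.40, while mucins and peritrophins reach 4.33.

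Regulators of tracheal and epidermal fate did not show the same increase. Of 9 tested, grh rose, Blimp-1 and pnr fell and 6 did not pass (median log2 fold change -0.07). The shares over all tested genes were 24.9% higher and 41.7% lower. Grainy head (grh), an activator of epidermal barrier genes, read 12.3 on each mutant array and 11.9 on each wild-type array (log2 level; log2 fold change 0.40, limma adjusted p = 6.43e-05). Blimp-1, a repressor active in trachea and epidermis, read 4.6, 4.7 and 4.8 in the mutant against 5.6, 5.5 and 5.8 in wild type (log2 level; log2 fold change -0.93, limma adjusted p = 0.000688). The fall of pnr, a dorsal epidermis regulator, was small (-0.20, limma adjusted p = 0.0236), and it did not pass after median centring (adjusted p = 0.165), after quantile normalization (adjusted p = 0.174) or when any 1 of the mutant arrays or wild-type replicate 2 was left out (adjusted p = 0.0667 to 0.0689). On the spike-in scale 8 of the 9 were higher and 0 lower, as for genes in general.

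Some markers of other tissues and of later stages rose as most chitin genes did and others did not, and their part in these results was not tested. Over all tested genes 24.9% rose, 13.3% rose at least 2-fold and 41.7% fell. All 8 measured markers of contractile muscle, which accumulate late in embryogenesis, rose at least 2-fold, and their summed linear level was 11500 to 12500 on the mutant arrays and 1010 to 1080 on the wild-type arrays. Of 7 tested midgut markers 5 rose at least 2-fold and 2 did not pass, and betaTry was at the floor. Mal-A3, 1 of the 5, passed the filter through the mutant arrays alone, and Jon25Bii in part through them. The summed linear level was 6460 to 6920 in the mutant and 3570 to 4270 in wild type. The brightest gene of this sum was srp, which did not pass (log2 fold change 0.10) and is also on the hemocyte list. Of 6 tested hemocyte markers 3 rose and 2 fell, with sums of 9640 to 10300 in the mutant and 6400 to 7210 in wild type, and NimC1 and He at the floor. Of 6 tested tracheal fate markers 1 rose, bs (log2 fold change 0.43, limma adjusted p = 0.000331), and 5 did not pass. These 5 (vvl, btl, rib, kni and knrl) are also on the regulator list, so they are not a separate observation. The listed markers trh and dys had no uniquely named probe set. The tracheal sums were 21400 to 23100 in the mutant and 21000 to 24400 in wild type, a range that rib dominates. Of 6 tested epidermal markers 2 rose, 2 fell and 2 did not pass, and sha was at the floor. Those that rose were grh and Ddc, and Ddc passed the filter through the mutant arrays alone. Those that fell were pnr and, narrowly, Egfr (limma adjusted p = 0.0496). Both grh and pnr are also on the regulator list. The sums were 8720 to 8760 in the mutant and 7280 to 7840 in wild type, with grh the brightest gene. Such sums add different probes and are carried by the brightest. The 9 yolk and chorion genes, markers of adult ovary, were at the floor on all arrays. In whole embryos a larger share of chitin-secreting cells and more transcript per cell cannot be told apart. Whether mutant and wild-type embryos differed in stage within the 6 to 8 h window was not tested.

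The direction of most chitin genes was the same on the 4 scales. Members called higher numbered 23 as deposited, 23 after median centring, 19 after quantile normalization and 23 on the spike-in scale, and those called lower numbered 1, 1, 3 and 0. Among all tested genes 24.9%, 30.9%, 24.9% and 92.9% were called higher, in the same order. Called lower were 41.7%, 29.8%, 42.3% and 0.563%. On the spike-in scale most genes of any kind were called higher, so the count there says little about the members. The median over all tested genes was -0.13 as deposited, -0.03 after median centring, -0.11 after quantile normalization and 1.25 on the spike-in scale. Median centring and the spike-in scale move all genes nearly alike, so only quantile normalization could change the members' place relative to that median: 21 of the 24 members stood above it, against 23 as deposited.

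**Figure D5:**
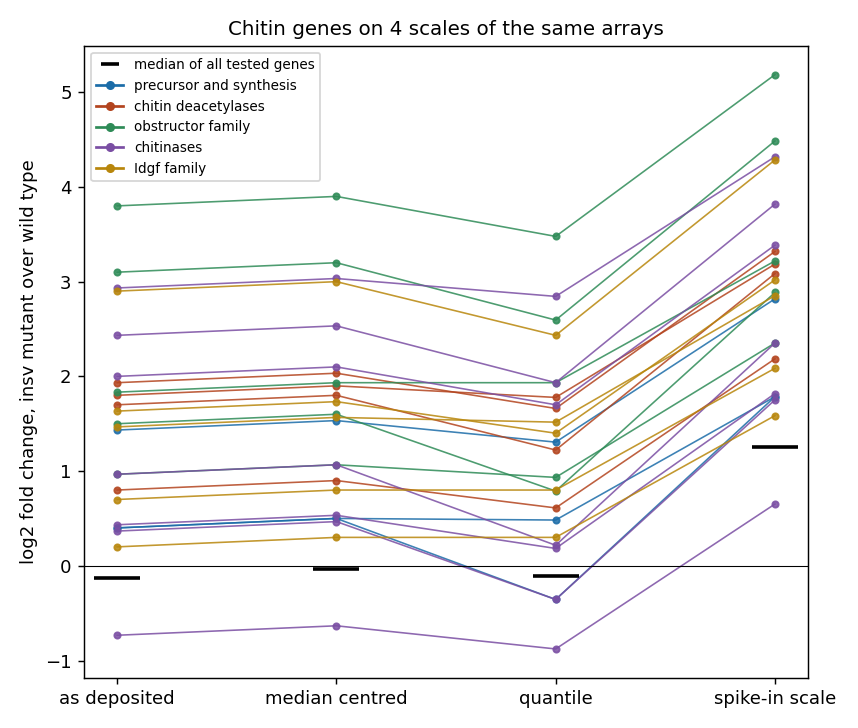
Log2 fold change (mutant over wild type, vertical axis) of the 24 tested chitin genes on 4 scales of the same 6 arrays (horizontal axis), 1 line per gene, coloured by role; black bars give the median of all tested genes on each scale. The spike-in scale lifts all genes by the same amount, 1.39, to a median of 1.25, and quantile normalization takes knk and Cht10 to -0.36.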

How the data were processed

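The deposited values are log2 expression levels that the authors made with GCRMA, per the submitters' processing notes; with version and options not given in the sources used here. This method models background from probe sequences, normalizes between arrays and summarises the probes of a set. That the scale is log2 follows from the values, whose range was 2.2, a floor for unexpressed probe sets, to 15.1 with 1 decimal. Near the floor a fold change may understate the difference, which was not tested, and rounding can turn a step of 0.1 into a call. Of 18952 probe sets, 183 were controls; of the others 13647 had 1 gene symbol, 402 several and 4720 none. Symbols of 13544 were updated through the gene identifier with RefSeq (assembly Release 6 plus ISO1 MT), used only for names and neighbours. Probe sets with a level of at least 4 on at least 3 of 6 arrays, 8334 in all, entered 1 fit of limma 3.58.1 (R 4.3.3; lmFit and eBayes without a block), and a call needed an adjusted p under 0.05 (Benjamini-Hochberg, over all of them). On these, 2055 probe sets were called higher and 3404 lower. The number of arrays limits the precision. No 2 arrays were identical: the closest pair agreed at 43.1% of tested probe sets.

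The members and lists were chosen with earlier results of these data known. Every member is named, and values per array are given for those changed at least 2-fold, for the core synthesis and luminal genes and, chosen after their values were seen, for others. From each further list the 3 called genes with the smallest adjusted p are named, and others named there (Gfat2, Tps1, Hexo2, Chs2, Mur18B, Muc11A, Muc91C, pio, dpy and marker genes) were chosen after their values were seen. Alternatives were other filters, quantile normalization, median centring, a scale set by the mean of the Bacillus spike-ins, other priors, weighted arrays, a replicate block, averaging the probe sets of a gene, a minimum fold change of 2 and each array left out. A filter on the wild-type arrays alone and noise within the rounding interval (20 draws) were added after seeing the data.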

Additional observations from a re-analysis of the deposited data

Results flagged for a closer look

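A probe set shared by CG4982 and Idgf4 read 4.7, 4.4 and 4.7 in the mutant against 2.3, 2.5 and 2.3 in wild type (log2 level). It cannot be given to 1 gene, so it enters none of the gene counts above, only those of probe sets. There it was called higher (limma adjusted p = 4.21e-05), having passed the filter through the mutant arrays alone. It was set apart because its values, 2.23 higher in the mutant on the log2 scale, belong to no single gene. The probe set used above for Idgf4, which carries the suffix for probes that can match more than 1 gene, differed by 0.70.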

How the results depend on the processing

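Of the 24 tested members, 19 kept their direction and their call under each of the alternatives that tested them, apart from the minimum fold change. With the probe sets of a gene averaged, 23 members were tested, of which 22 were higher and 1 lower. Cht6 fell under the filter there and was not tested. Quantile normalization turned knk and Cht10 to -0.36 each, turned Muc91C to -0.13, left Cht2 (0.18) and Cht9 (0.22) short of the threshold and gave 3 members called lower in place of 1; the cause was not tested. The spike-in scale turned Cht11 to 0.65 and gave 7714 probe sets called higher and 51 lower, with 0 members lower. It also turned Gfat2 (1.29), Tps1 (1.15), fdl (0.95), Blimp-1 (0.45) and pnr (1.19); that scale shifts all genes alike by construction. A minimum fold change of 2, which leaves fewer calls by construction, gave 1062 probe sets higher and 291 lower, and 14 members higher and 0 lower. Leaving out 1 array gave 22 to 23 members higher and 1 lower, and 1870 to 2186 probe sets higher and 2840 to 3527 lower. With the replicate number as a block, 22 members were higher and 1 lower, and 2010 probe sets were higher and 3224 lower; Cht9 lost its call (adjusted p = 0.0912) and no other member did. Deviations of same-numbered arrays from their genotype means correlated at 0.166, -0.0145 and 0.271 across probe sets. Those of differently numbered arrays correlated at -0.294 to 0.197. With 3 arrays per genotype these values cannot decide whether the numbers pair the samples. Without the filter on low values 24 members were higher and 1 lower, and Cht9 did not pass (adjusted p = 0.0674). With a filter on the wild-type arrays alone 18 were higher and 1 lower, and with noise within the rounding interval 23 and 1. Signal near the floor limits what can be said of the 9 members not tested.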
